A study of Mus musculus with 2 samples.

Results

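Islet macrophages that carried transcripts of Spic or Slc40a1 were picked out of immune cells sorted from mouse pancreatic islets. Spic encodes the transcription factor SPI-C, and Slc40a1 encodes ferroportin, the iron exporter of the cell membrane. A macrophage was a barcode with at least 5 unique molecular identifiers (UMIs, each a captured transcript) of the complement genes C1qa, C1qb and C1qc together. Members, called here Spic/Slc40a1 macrophages, were chosen by their own Spic and Slc40a1 counts, as macrophages with at least 2 UMIs of the pair. There were 460 such cells among 2863 macrophages and 3092 kept barcodes, 322 of 1620 macrophages in the 12-week library and 138 of 1243 in the 1-week library. They were set against the macrophages with 0 UMIs of both genes in the same library, 1083 cells at 12 weeks and 965 at 1 week, called 0-UMI macrophages.

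Both libraries came from male C57BL/6J mice on chow, each from islets pooled from 6 to 8 animals, so that no value belongs to a single mouse. Sorting kept live cells (no uptake of the dye DAPI) that carried the leukocyte protein CD45 and lacked the epithelial protein Epcam. One library carried the time label 12 weeks and the other 1 week, counted from a point that no label names. The titles number the pair as replicates of chow islets although these time labels differ, so a 12-week against 1-week value sets 1 replicate against the other. Each library also had its own experiment number, so the time label and the experiment cannot be told apart.

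Tissue macrophages take up spent red cells and their heme. Heme oxygenase opens the heme ring and frees iron, ferritin stores that iron, and ferroportin returns it to the blood. In mice, heme drives Spic by removing the repressor BACH1, and SPI-C is needed for the red pulp macrophages of the spleen, which recycle iron. The oxidant response factor NRF2 shares DNA elements with BACH1 and drives genes of glutathione and thioredoxin chemistry as well as genes of heme and iron handling.

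There were 12448628 UMIs on 1867 barcodes at 12 weeks and 12858754 UMIs on 1551 barcodes at 1 week. Filters kept 1752 barcodes at 12 weeks and 1340 at 1 week, of which 92.5% and 92.8% were macrophages. The 10 general macrophage markers, Cd68, Csf1r, Adgre1 and Apoe among them, were all detected in the Spic/Slc40a1 macrophages. Those markers summed to 38124 CPM (a gene's UMIs per 1000000 UMIs of the cells summed) at 12 weeks and 39738 CPM at 1 week, against 37547 and 32263 CPM in the 0-UMI macrophages. Most of each sum was Apoe, at 29252 and 30666 CPM in the Spic/Slc40a1 macrophages and 29029 and 24057 CPM in the 0-UMI macrophages. The libraries shared 3 cell barcodes, and 2 of these belonged to a Spic/Slc40a1 macrophage in at least 1 library.

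Spic transcripts were concentrated in macrophages. A Spic UMI was found in 25.9% of macrophages at 12 weeks (median 6890.5 UMIs per cell) and in 17.3% at 1 week (median 7401 UMIs). Among the other kept barcodes it was found in 6 of 132 at 12 weeks (4.55%, median 3920 UMIs) and in 1 of 97 at 1 week (1.03%, median 6499 UMIs). Among barcodes with at least 3 UMIs of T and NK cell markers, cells that should lack Spic, 1 of 37 at 12 weeks (median 3398 UMIs) and 0 of 10 at 1 week had one, and 0 of 10 allows a share of up to 30%. Slc40a1 was found in 13.2% of macrophages at 12 weeks and in 7.88% at 1 week, against 7 of 132 and 3 of 97 of the other kept barcodes.

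The cells lay on a range of counts with no gap at the threshold. Just inside it, 113 macrophages at 12 weeks and 58 at 1 week had exactly 2 UMIs of both genes together, and just outside it 215 and 140 had 1. The highest count in a cell was 21 UMIs at 12 weeks and 18 at 1 week. A cell with few transcripts of the pair and a cell captured less deeply cannot be told apart at this threshold. The Spic/Slc40a1 macrophages held a median of 7525.5 UMIs and 1869 genes per cell at 12 weeks and 9419.5 UMIs and 2164 genes at 1 week. The 0-UMI macrophages held 6738 UMIs and 1712 genes at 12 weeks and 7042 UMIs and 1793 genes at 1 week.

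Spic/Slc40a1 macrophages made up 19.9% of macrophages at 12 weeks (exact binomial 95% interval 18.0 to 21.9) and 11.1% at 1 week (9.41 to 12.98). With every cell thinned to 4000 UMIs the shares were 12.6% at 12 weeks (183 of 1456 cells) and 4.77% at 1 week (48 of 1006 cells). Thinning left out as too shallow 12 members and 137 0-UMI macrophages at 12 weeks, and 8 and 218 at 1 week. The share was higher at 12 weeks both as counted and at equal depth. Each time label had 1 library, so no test was made, and these intervals cover counting error only.

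The share of members was higher among deeper cells. From 2000 to 4000 UMIs, 8.82% of macrophages at 12 weeks and 3.30% at 1 week were members, and from 8000 to 12000 UMIs 23.0% and 9.65%. At 16000 UMIs and above, 6 of 14 cells at 12 weeks and 41 of 143 cells at 1 week were members. In each of these 3 depth ranges the 12-week share was the higher one, while below 2000 UMIs it was 0 of 28 cells at 12 weeks and 2 of 55 at 1 week. The exact intervals of the deepest range (17.7 to 71.1% at 12 weeks, 21.4 to 36.8% at 1 week) overlapped.

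**Figure D1:**
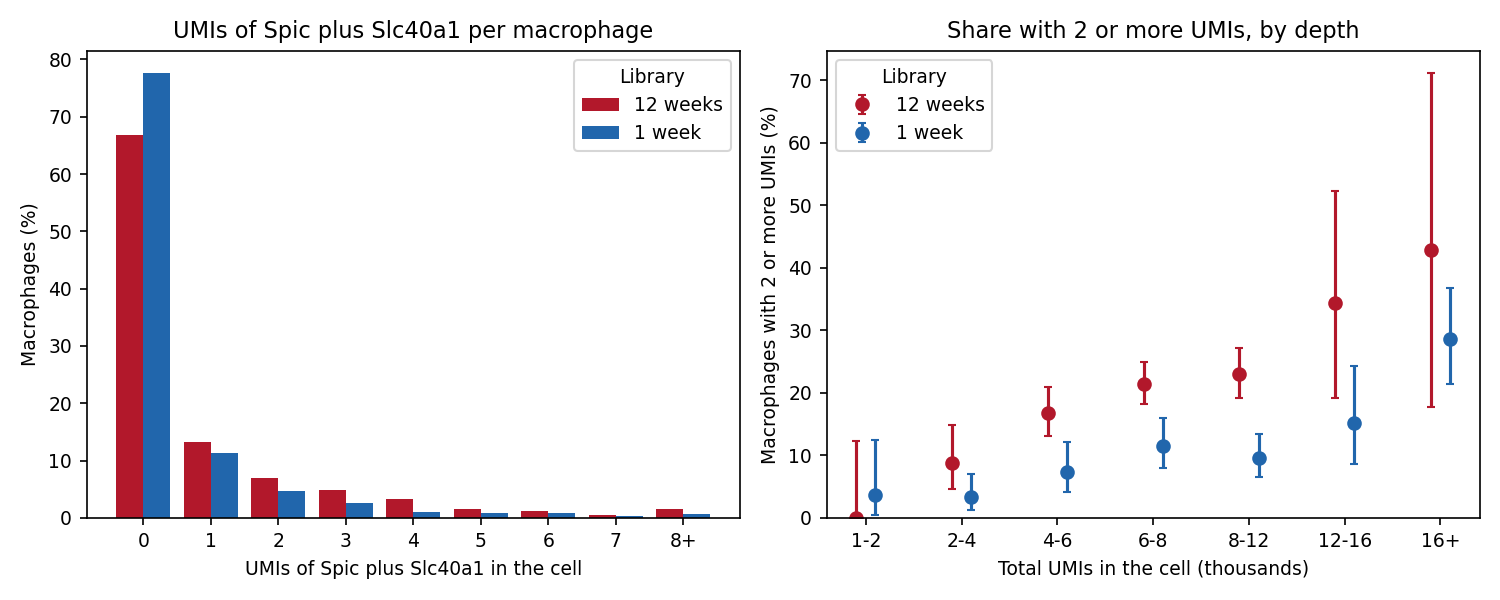
The left panel plots the percentage of macrophages (y axis) by their UMIs of Spic plus Slc40a1 (x axis), and the right panel the percentage of macrophages that are Spic/Slc40a1 macrophages by total UMIs per cell, with exact binomial 95% intervals, 12 weeks in red and 1 week in blue. From 2000 to 4000 UMIs the share was 8.82% at 12 weeks and 3.30% at 1 week, and it was 23.0% and 9.65% from 8000 to 12000 UMIs.

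Spic (ENSMUSG00000004359, chr10:88674772-88685015, minus strand, GRCm38) stood at 356.8 CPM in the members at 12 weeks and 202 CPM at 1 week, in 85.7% and 87.0% of them. Slc40a1 (ENSMUSG00000025993, chr1:45908068-45926523, minus strand) stood at 129.7 CPM at 12 weeks and 58.4 CPM at 1 week, in 44.1% and 38.4% of them. These levels chose the members and are a description. By kind, 180 members at 12 weeks (55.9%) and 85 at 1 week (61.6%) held Spic alone, 46 (14.3%) and 18 (13.04%) held Slc40a1 alone, and 96 (29.8%) and 35 (25.4%) held both. Most members were thus Spic-bearing cells in which no Slc40a1 transcript was counted.

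Slc40a1 and Spic were found together in the same macrophages. With macrophages split by Spic alone, a choice that uses no Slc40a1 count, Slc40a1 stood at 77.8 CPM (Poisson 95% interval 65.6 to 91.6) in cells with 2 or more Spic UMIs at 12 weeks, against 23.0 CPM (19.9 to 26.5) in cells with none. At 1 week it stood at 24.1 CPM (17.0 to 33.0) in cells with 2 or more Spic UMIs, against 11.6 CPM (9.39 to 14.1) in cells with none. Cells with 1 Spic UMI lay between, at 51.8 CPM at 12 weeks and 17.5 CPM at 1 week. Slc40a1 was higher in Spic-bearing macrophages, with a log2 fold change of 1.47 (SE 0.19) and a Benjamini-Hochberg adjusted p of 0.000267 by edgeR over the 7704 genes tested. At equal depth, with each Spic-bearing cell matched to the nearest cell without Spic by total UMIs, the log2 fold change was 1.88 (edgeR, adjusted p = 0.000799).

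The reverse split gave the same direction with a less certain test. Spic stood at 160.7 CPM in macrophages with a Slc40a1 UMI at 12 weeks, against 79.8 CPM in those without, and at 80.7 CPM against 38.1 CPM at 1 week. The groups stood apart in each library, with log2 ratios of 1.01 (0.81 to 1.21) at 12 weeks and 1.08 (0.76 to 1.40) at 1 week. That fit had 1 residual degree of freedom, and its log2 fold change of 0.99 (SE 0.12) had a Benjamini-Hochberg adjusted p of 0.148 by edgeR. At equal depth, again with 1 residual degree of freedom, the log2 fold change was 1.13 (SE 0.19, edgeR adjusted p = 1.23e-06). The lower adjusted p came with the larger SE, so it does not stand for closer replication between the 2 libraries. In cells thinned to 4000 UMIs, a Slc40a1 UMI was found in 50 of 294 Spic-bearing cells against 93 of 1162 others at 12 weeks (17.0% against 8.00%), and in 11 of 118 against 35 of 888 at 1 week (9.32% against 3.94%).

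Across all other genes, the Spic/Slc40a1 macrophages differed from the 0-UMI macrophages in a small set. Raw UMIs were summed per library and class, and edgeR's quasi-likelihood test with the library as a block compared 8378 genes, leaving out Spic, Slc40a1 and the C1q genes. At a Benjamini-Hochberg adjusted p under 0.05, 23 genes were higher (0.275% of genes tested) and 30 lower (0.358%). At equal depth, with 8111 genes tested, 11 were higher (0.136%) and 13 lower (0.16%), of which 9 and 10 were among those called with all cells. The p-values measure how far the difference varied between 2 pools of mice that carry different time labels. Among listed genes, those called higher with all cells and at equal depth were Prdx1, Slc7a11, Gclm, Lipa and Cxcl3.

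**Figure D2:**
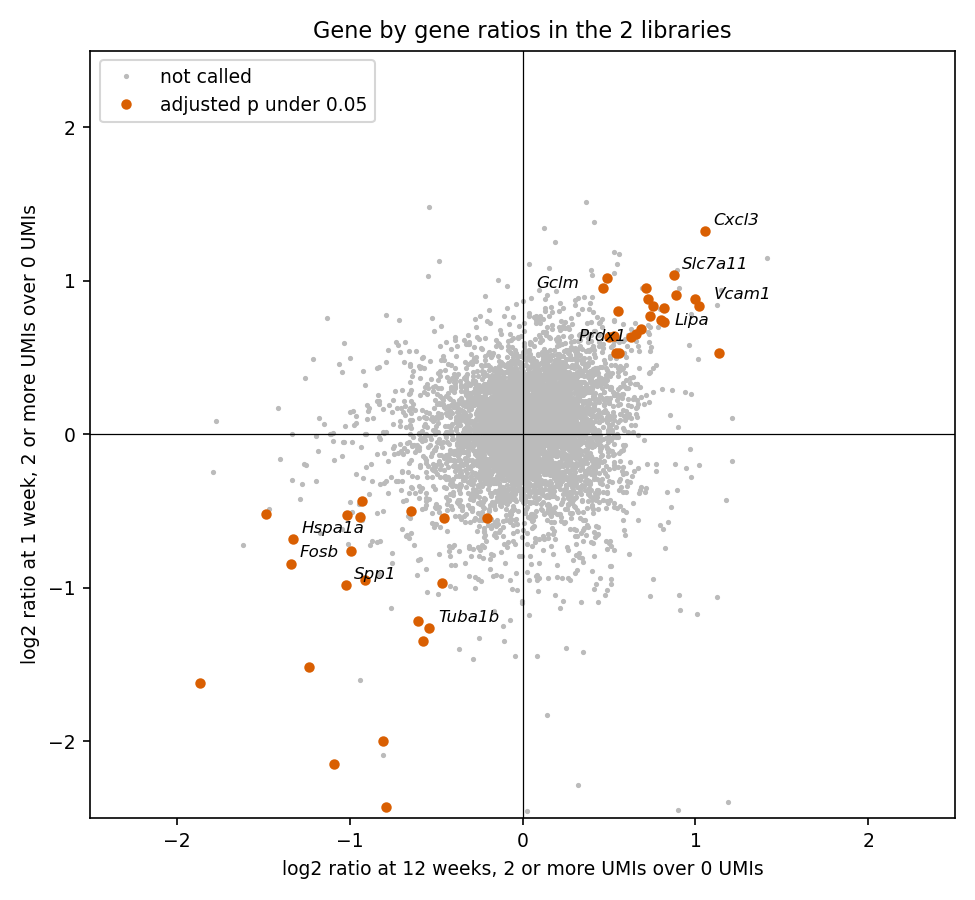
Each point is a gene, placed by its log2 ratio of CPM in Spic/Slc40a1 over 0-UMI macrophages at 1 week and at 12 weeks; genes that passed the edgeR test are coloured. Of the 8378 genes tested, 5820 are plotted, 22 more lie outside the axes and the rest lack the 10 CPM or the counts above 0 needed for a point. Of the 53 genes that passed, 44 are plotted and 3 lie outside the axes; they were called from these same libraries.

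The antioxidant genes that NRF2 drives were the gene group with the most members that rose. Of 21 listed genes 19 were tested, and 4 rose (Prdx1, Slc7a11, Gclm and Gsr) and none fell. Over all genes tested 0.275% rose. The median log2 fold change of the list was 0.49, against -0.01 over all genes tested. The CPM was higher in the members in both libraries for 18 of the 19, where 29.7% of all genes tested were so. The list was drawn up with earlier results of these cells known, so its direction is not independent evidence. At equal depth 3 of the 4 passed, the exception being Gsr, and the median was 0.52.

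Prdx1 (chr4:116685544-116700822, plus strand) encodes peroxiredoxin 1, which breaks down hydrogen peroxide with thioredoxin as its partner. It stood at 4587 CPM in Spic/Slc40a1 macrophages at 12 weeks and 3603 CPM at 1 week, against 2757 and 2107 CPM in 0-UMI macrophages. All values of the members lay above all values of the 0-UMI macrophages, and cells with 1 UMI lay between within each library. The log2 fold change was 0.73 (SE 0.08, edgeR adjusted p = 0.00032). Counted cell by cell, 251 of 322 members at 12 weeks (78.0%) and 116 of 138 at 1 week (84.1%) lay above the median 0-UMI macrophage of their library.

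Slc7a11 (chr3:49892526-50443614, minus strand) encodes the transport subunit of the cystine-glutamate exchanger, which supplies cysteine for glutathione. It stood at 433 and 396 CPM in Spic/Slc40a1 macrophages at 12 weeks and 1 week, against 236 and 193 CPM in 0-UMI macrophages. The groups did not overlap, and the log2 fold change was 0.93 (SE 0.11, edgeR adjusted p = 0.00032). Gclm (chr3:122245557-122270732, plus strand), the modifier subunit of the enzyme that makes the first step of glutathione synthesis, stood at 326 and 226 CPM in the members, against 236 and 116 CPM in 0-UMI macrophages. It was the higher in members within each library, although the 1-week members lay below the 12-week 0-UMI macrophages, and rose by 0.68 (log2, SE 0.12, edgeR adjusted p = 0.0117). Gsr, glutathione reductase, stood at 131 and 93.2 CPM in the members against 89.6 and 53.5 CPM, without overlap, and rose by 0.64 (log2, SE 0.12, edgeR adjusted p = 0.0134).

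The listed genes that missed the threshold were mostly on the same side. Abcc1, an exporter of glutathione conjugates, had 0.60 on the log2 scale (edgeR adjusted p = 0.0562), and Srxn1, sulfiredoxin, which repairs overoxidised peroxiredoxins, had one of 0.47 (edgeR adjusted p = 0.0951). Gclc, the catalytic partner of Gclm, was the single listed gene tested that was not higher in both libraries. It stood at 102 and 95.8 CPM in the members at 12 weeks and 1 week, against 133 and 67.3 CPM in 0-UMI macrophages, with a log2 fold change of -0.00. The subunits of the one enzyme thus differed in their values, and a test of that difference was not made. Nfe2l2, which encodes NRF2 itself, had a log2 fold change of 0.20 (edgeR adjusted p = 0.651).

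Promoter sequences from RefSeq (GRCm38.p6) are shown for Prdx1 and Gclm because both genes rose and both hold the core of the antioxidant response element, the site that NRF2 is known to bind. The search was for TGACNNNGC on either strand in the 250 bases before the start, and capitals mark the match. The Prdx1 stretch is chr4:116685349-116685543 (plus strand) and stops where its first exon begins in GENCODE, and the Gclm stretch is chr3:122245307-122245556 (plus strand).
Prdx1: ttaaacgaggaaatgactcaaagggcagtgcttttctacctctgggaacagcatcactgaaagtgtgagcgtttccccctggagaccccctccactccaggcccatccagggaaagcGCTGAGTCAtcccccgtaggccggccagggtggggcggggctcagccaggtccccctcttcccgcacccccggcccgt
Gclm: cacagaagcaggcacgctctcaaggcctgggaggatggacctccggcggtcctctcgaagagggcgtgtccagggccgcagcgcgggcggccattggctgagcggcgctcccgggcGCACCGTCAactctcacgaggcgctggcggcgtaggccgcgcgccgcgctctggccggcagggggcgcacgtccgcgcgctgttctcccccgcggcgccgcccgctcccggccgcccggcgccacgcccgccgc
The match begins 133 bases before the RefSeq start in Prdx1 and 134 bases before it in Gclm, in both cases read on the opposite strand, and the Prdx1 match overlaps a TGANTCA motif of AP-1 factors. Of the 19 NRF2-list genes tested, 16 had a promoter in the table and 5 held the element (Gclm, Txnrd1, Prdx1, G6pdx and Mgst1), where 11.5% of all 27025 genes did. Of the 23 genes higher in members, 19 had a promoter and 2 held it. GAGGAA, the core that SPI-C and other ETS factors are known to bind, was found in 8 of those 19, where 25.9% of all genes held it. These letter matches describe the windows and were not tested against the expression values.

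Genes of iron and heme handling, other than Slc40a1, did not pass the test with all cells or at equal depth. Of 33 listed genes 23 were tested, and 0 rose and 0 fell by edgeR at an adjusted p under 0.05. At an unadjusted p under 0.05, 8 were higher and 0 lower by edgeR, where 360 and 368 of all 8378 genes tested were. DESeq2 called 1, Hmox1, at its adjusted threshold. The median log2 fold change was 0.13, and 11 of 23 had higher CPM in members in both libraries and 5 lower, where 29.7% and 24.5% of all genes tested did. At equal depth 24 were tested, with 0 called in either direction by edgeR, 9 higher and 1 lower at an unadjusted p under 0.05, and 1 called by DESeq2. The name iron-handling therefore rests on the genes that chose the cells, and the other genes of iron handling are given here by their values.

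Hmox1 (chr8:75093621-75100589, plus strand), heme oxygenase 1, stood at 4126 and 2416 CPM in Spic/Slc40a1 macrophages at 12 weeks and 1 week, against 3521 and 1606 CPM in 0-UMI macrophages. It was higher in the members of each library, with the larger gap at 1 week, and the 1-week members lay below the 12-week 0-UMI macrophages. The log2 fold change was 0.38 (SE 0.09, edgeR adjusted p = 0.0900). At equal depth it was 0.57 (SE 0.12, edgeR adjusted p = 0.0808), and without the cells rich in hormone or other markers Hmox1 was called at equal depth. Without matching on depth, Hmox1 did not pass with the stricter cell filter, 3 UMIs required or members by either gene alone. Nor did it pass with DESeq2 size factors in edgeR, only 2 classes or no block. In the settings without matching on depth where it passed, its log2 fold change was 0.36 to 0.49. The lowest adjusted p of these was 4.48e-06 by edgeR, with all cells thinned to 4000 UMIs and classes taken anew. Of the members, 60.6% at 12 weeks and 82.6% at 1 week lay above the median 0-UMI macrophage of their library.

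The heme carrier Slc48a1, which moves heme out of the phagolysosome, stood at 79.8 and 54.3 CPM in the members, against 55.2 and 35.6 CPM in 0-UMI macrophages (log2 fold change 0.54, SE 0.13, edgeR adjusted p = 0.0909). Lrp1, the receptor for heme bound to hemopexin, stood at 60.5 and 72.7 CPM in the members against 42.2 and 48.5 CPM (0.52, edgeR adjusted p = 0.114). Both were higher in members in each library without passing the test. Blvrb, a biliverdin reductase, stood at 294 and 238 CPM against 237 and 189.6 CPM (0.29, edgeR adjusted p = 0.373). The phagosomal metal transporter Slc11a1 stood at 219 and 228 CPM against 188 and 168 CPM (0.30, edgeR adjusted p = 0.365).

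Ferritin transcripts were abundant in every class. The heavy chain gene Fth1 stood at 40086 and 41637 CPM in members at 12 weeks and 1 week, against 37584 and 33625 CPM in 0-UMI macrophages (log2 fold change 0.17, edgeR adjusted p = 0.332). The light chain gene Ftl1 stood at 16523 and 14955 CPM in members, against 15244 and 12012 CPM (0.19, edgeR adjusted p = 0.326). Both genes stood higher in members in each library, with log2 ratios at 12 weeks and 1 week of 0.09 and 0.31 for Fth1 and 0.12 and 0.32 for Ftl1. Of the members, 68.3% at 12 weeks and 79.7% at 1 week lay above the median 0-UMI macrophage for Fth1, and 64.9% and 80.4% for Ftl1. Bach1, the heme-sensing repressor, stood at 298 and 252 CPM against 256.5 and 199.6 CPM (0.25, edgeR adjusted p = 0.493). The other 15 iron and heme genes tested had log2 fold changes of -0.58 to 0.36, with a lowest edgeR adjusted p of 0.608.

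Some genes of iron uptake were close to undetected. Tfrc, the transferrin receptor, had 5 UMIs in the members of each library, against 23 and 32 UMIs in 0-UMI macrophages at 12 weeks and 1 week. Cd163, the receptor for hemoglobin bound to haptoglobin, had 1 and 0 UMIs in members and none in 0-UMI macrophages. Neither was tested, and 10 of the 33 listed genes were in this position.

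**Figure D3:**
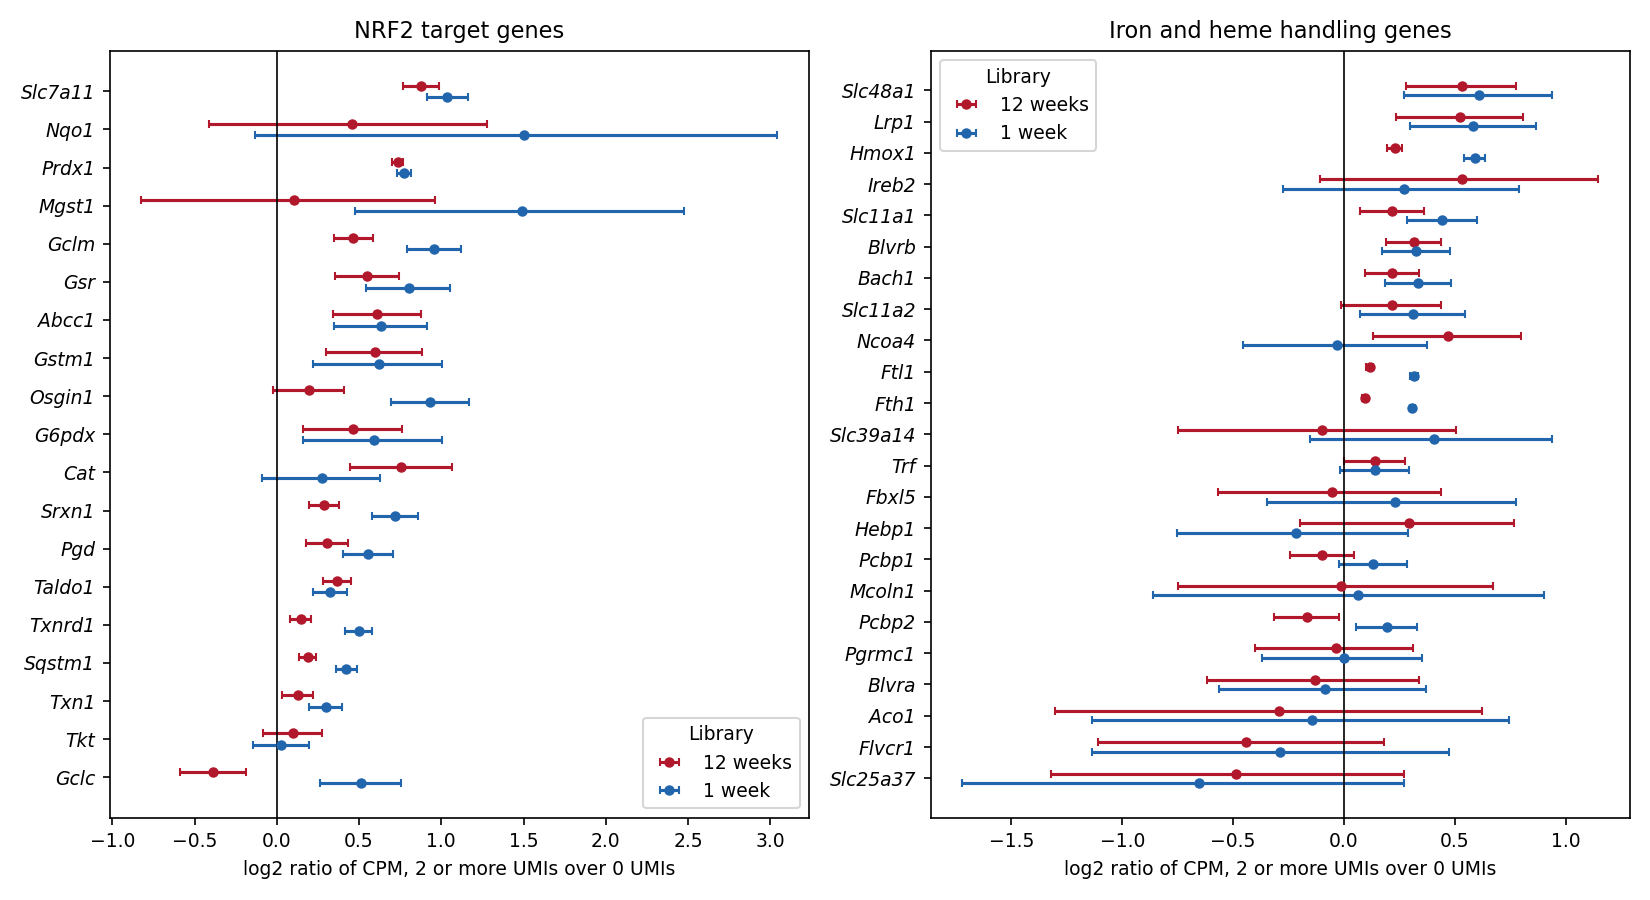
Log2 ratios of CPM in Spic/Slc40a1 over 0-UMI macrophages (x axis) with exact conditional 95% intervals for counting error, 12 weeks in red and 1 week in blue, for the 19 NRF2 genes and the 23 iron and heme genes tested. Of the NRF2 genes 18 lie right of 0 in both libraries, and of the iron and heme genes 11.

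Among lysosome and lipid genes, Lipa rose and no other listed gene was called with all cells or at equal depth. Lipa (chr19:34492318-34527474, minus strand) encodes lysosomal acid lipase, which cleaves cholesteryl esters and triglycerides. It stood at 442 and 352 CPM in Spic/Slc40a1 macrophages at 12 weeks and 1 week, against 251 and 199 CPM in 0-UMI macrophages. The groups did not overlap, and the log2 fold change was 0.79 (SE 0.11, edgeR adjusted p = 0.000817). Of the 21 lysosome and lipid genes tested, 15 were higher in members in both libraries, where 29.7% of all genes tested were so. The median was 0.23. Ctsd, the protease cathepsin D, stood at 604 and 552 CPM against 473 and 346 CPM (0.48, edgeR adjusted p = 0.0756). Cd36, a scavenger receptor for oxidised lipids in the efferocytosis list, stood at 295 and 248 CPM against 200.3 and 200.5 CPM. Its log2 fold change was 0.41 with all cells (edgeR adjusted p = 0.133) and 0.70 at equal depth (edgeR adjusted p = 0.0202). Pla2g7, an enzyme that hydrolyses oxidised phospholipids, stood at 254 and 209 CPM against 150.4 and 117 CPM without overlap, which is 0.77 on the log2 scale (SE 0.11, edgeR adjusted p = 0.00121).

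The largest log2 fold change among the named higher genes was that of Cxcl3, a chemokine for neutrophils. It stood at 92.7 and 174 CPM in Spic/Slc40a1 macrophages at 12 weeks and 1 week, against 44.6 and 69.3 CPM in 0-UMI macrophages. The groups did not overlap, and the log2 fold change was 1.17 (SE 0.13, edgeR adjusted p = 0.00032). It was the single one of 23 inflammatory NF-kB genes tested that was called, and the median of that list was 0.14. Slc43a2, a carrier of large neutral amino acids, stood at 143 and 76.8 CPM against 71.8 and 41.7 CPM (0.91, SE 0.13, edgeR adjusted p = 0.00161). Id2, an inhibitor of helix-loop-helix transcription factors, stood at 576 and 613 CPM against 359 and 381 CPM (0.66, SE 0.10, edgeR adjusted p = 0.0043). Rap2b, a small GTPase, stood at 236 and 203 CPM against 153 and 131 CPM (0.60, SE 0.10, edgeR adjusted p = 0.0105). Slc43a2, Id2 and Rap2b did not overlap between the groups, and all 4 genes of this paragraph passed at equal depth too.

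Genes known from red pulp and Kupffer macrophages, the iron-recycling cells of mouse spleen and liver, were mostly too sparse to test. Of 23 listed genes 10 were tested and 1 rose, where 0.275% of all genes tested rose. That gene was Vcam1, an adhesion protein of red pulp macrophages. Vcam1 stood at 98.6 and 41.5 CPM in members at 12 weeks and 1 week, against 48.5 and 23.2 CPM in 0-UMI macrophages. It was higher in members within each library, by 0.93 on the log2 scale (SE 0.17, edgeR adjusted p = 0.0113) and at equal depth by 0.97, which did not pass (edgeR adjusted p = 0.0751). Epor, Vsig4, Clec4f, Folr2 and Itgad had 0 UMIs in the members of both libraries. Marco, Timd4, Cd5l and Siglec1, genes known from resident macrophages in other tissues, had between 0 and 5 UMIs in the members of a library.

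Further genes that rose are named here after their values were seen. Prdm1, which encodes the repressor BLIMP-1, stood at 72.3 and 54.8 CPM in members against 43.8 and 29.8 CPM in 0-UMI macrophages (log2 fold change 0.77, edgeR adjusted p = 0.0183). Itgb8, an integrin chain that takes part in activating TGF-beta, stood at 71.1 and 37.9 CPM against 32.4 and 26.2 CPM (0.85, edgeR adjusted p = 0.0374). Clec4n (Dectin-2) and Clec4d, lectin receptors for fungal and mycobacterial sugars, rose by 0.87 (edgeR adjusted p = 0.0374) and 0.52 (edgeR adjusted p = 0.0428) on the log2 scale. None of these 4 passed at equal depth, where the lowest edgeR adjusted p of them was 0.0546 for Prdm1.

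**Figure D4:**
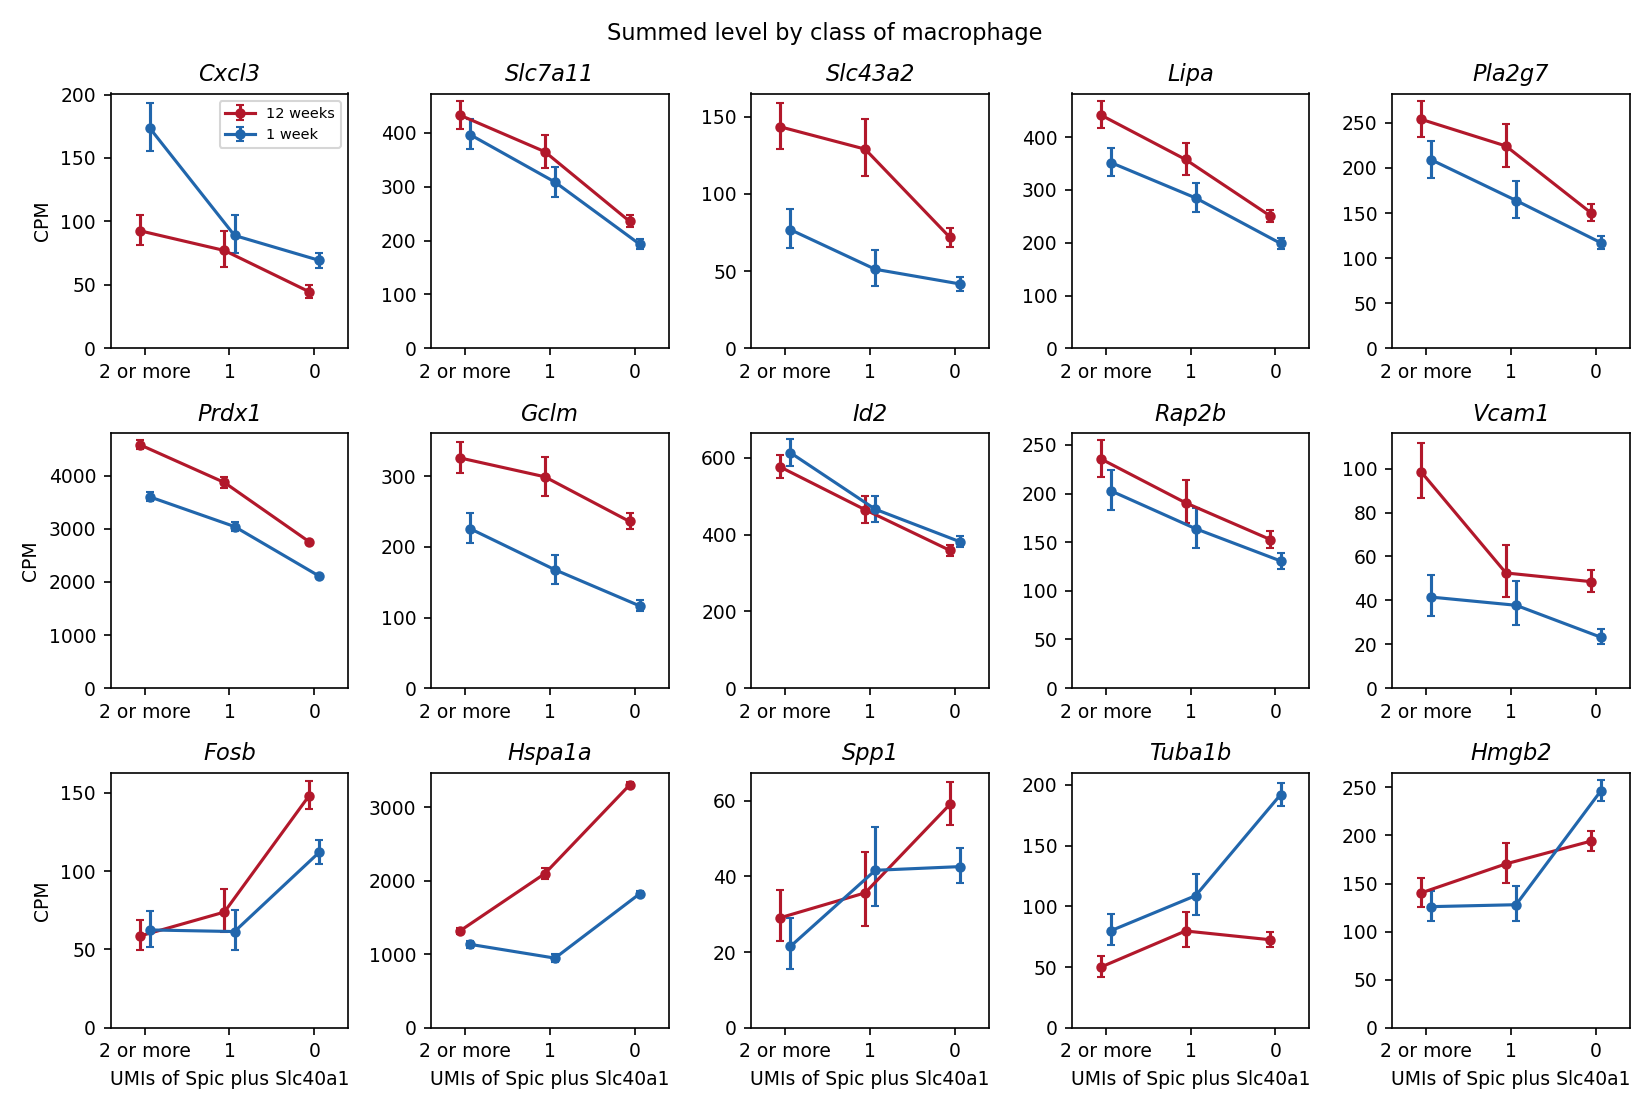
CPM (y axis) with Poisson 95% intervals in macrophages with 2 or more, 1 and 0 UMIs of Spic plus Slc40a1 (x axis), 12 weeks in red and 1 week in blue, for 15 named genes. Prdx1 stands at 4587 and 3603 CPM in cells with 2 or more UMIs and at 2757 and 2107 CPM in cells with 0, and Fosb and Spp1 run the other way.

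A few immediate early and heat shock genes fell with all cells counted, and of these Fosb alone also passed at equal depth. Immediate early genes encode factors made within minutes of a stimulus. Of 16 tested 3 fell in the Spic/Slc40a1 macrophages (Fosb, Jun and Btg2) and none rose, where 0.358% of all genes tested fell. For 11 of the 16 the CPM was lower in both libraries, where 24.5% of all genes tested were so. The median log2 fold change was -0.32. Fosb (chr7:19302696-19310051, minus strand), a subunit of AP-1, stood at 58.5 and 62.5 CPM in members at 12 weeks and 1 week, against 148 and 112 CPM in 0-UMI macrophages. The groups did not overlap, and the log2 fold change was -1.13 (SE 0.13, edgeR adjusted p = 0.000329), while at equal depth it was -0.91 (edgeR adjusted p = 0.0202). Jun, its partner in AP-1, stood at 187 and 195 CPM against 292 and 275 CPM (-0.60, SE 0.12, edgeR adjusted p = 0.0203). Btg2, a brake on proliferation, stood at 195 and 164 CPM against 267 and 239 CPM (-0.53, SE 0.11, edgeR adjusted p = 0.0297). At equal depth Jun and Btg2 had log2 fold changes of -0.42 and -0.23 and did not pass (edgeR adjusted p = 0.423 and 0.646).

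Of 12 heat shock genes tested 3 fell and none rose, where 0.358% of all genes tested fell. For 9 of the 12 the CPM was lower in both libraries, where 24.5% of all genes tested were so. The median was -0.35. Hspa1a and Hspa1b encode near-identical HSP70 chaperones, so the split of their reads is uncertain. Hspa1a stood at 1316 and 1134 CPM in members at 12 weeks and 1 week, against 3300 and 1823 CPM in 0-UMI macrophages (log2 fold change -1.01, SE 0.15, edgeR adjusted p = 0.00161). Hspa1b stood at 1285 and 1026 CPM in members, against 3589 and 1469 CPM (-1.01, SE 0.16, edgeR adjusted p = 0.00567). The members lay below the 0-UMI macrophages throughout. Dnajb1, a co-chaperone of HSP70, stood at 202 and 135 CPM against 409 and 195 CPM (-0.81, SE 0.14, edgeR adjusted p = 0.0116). At equal depth 0 of the 12 were called by edgeR and 0 by DESeq2. At an unadjusted p under 0.05 by edgeR 6 were lower there, where 299 of all 8111 genes tested were. Without the macrophages rich in hormone or other markers, Hspa1a, Hspa1b and Dnajb1 fell at equal depth too. The median mitochondrial share of UMIs was 3.18% and 3.54% in members, against 3.02% and 3.31% in 0-UMI macrophages, and its part in these differences was not tested.

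Spp1, Tuba1b and Hmgb2 fell too. Spp1, the secreted protein osteopontin, stood at 29.1 and 21.5 CPM in members at 12 weeks and 1 week, against 59.0 and 42.6 CPM in 0-UMI macrophages (log2 fold change -1.02, SE 0.19, edgeR adjusted p = 0.0141). Tuba1b, an alpha tubulin, stood at 49.9 and 79.9 CPM against 72.5 and 192 CPM (-0.96, SE 0.17, edgeR adjusted p = 0.0105). Hmgb2, a chromatin protein of dividing cells, stood at 140.3 and 126 CPM against 194 and 246 CPM (-0.75, SE 0.14, edgeR adjusted p = 0.0132). Spp1 and Hmgb2 did not overlap between the groups, whereas the 1-week members lay above the 12-week 0-UMI macrophages for Tuba1b. All 3 passed at equal depth.

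Of 10 cell cycle genes tested 1 fell, Ube2c, a ubiquitin-conjugating enzyme of mitosis, where 0.358% of all genes tested fell. For 9 of the 10 the CPM was lower in both libraries, where 24.5% of all genes tested were so. The median was -1.14. Ube2c had 0 and 1 UMIs in members at 12 weeks and 1 week, against 36 and 44 UMIs in 0-UMI macrophages (edgeR adjusted p = 0.0322). The 14 listed cell cycle genes summed to 182 and 209 CPM in members, against 212 and 389 CPM in 0-UMI macrophages. At equal depth 2 of 11 fell, Ube2c and Rrm2. Without macrophages rich in hormone transcripts or in markers of 1 other cell class, 9 were tested and 0 called by edgeR. Ube2c was not among those tested. At an unadjusted p under 0.05, 7 were lower and 0 higher by edgeR, where 438 and 421 of all 8160 genes tested were. At equal depth in that setting 3 of 10 fell, Stmn1, Pclaf and Rrm2.

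The monocyte receptor Ccr2 stood at 14.1 and 18.9 CPM in members at 12 weeks and 1 week, against 26.7 and 36.6 CPM in 0-UMI macrophages, without overlap (log2 fold change -0.96, SE 0.20, edgeR adjusted p = 0.0367). At equal depth it did not pass (-0.97, edgeR adjusted p = 0.0939). The 8 monocyte markers summed to 27.5 and 65.0 CPM in members, with Chil3 at 0 in both libraries, against 38.2 and 47.4 CPM. At 1 week 62 of the 127 UMIs of these markers in members were in 1 cell. Only 2 of the 8 were tested. The 1 tested beside Ccr2 was higher in members in both libraries, with an unadjusted p under 0.05 by edgeR. Without the cells rich in other markers, Plac8 was called higher and Ccr2 lower. Igfbp7, a secreted protein that endothelial cells make, had 3 and 2 UMIs in members against 105 and 82 UMIs in 0-UMI macrophages (log2 fold change -3.49, SE 0.46, edgeR adjusted p = 0.000741). It was found in 1.02% and 1.76% of 0-UMI macrophages, with up to 32 UMIs in 1 cell at 12 weeks and 29 at 1 week. The 8 endothelial markers summed to 5.11 and 6.15 CPM in members, with Cldn5 at 0 in both libraries, against 38.8 and 7.60 CPM in 0-UMI macrophages. Without the cells rich in other markers, Igfbp7 had too few counts to be tested.

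**Figure D5:**
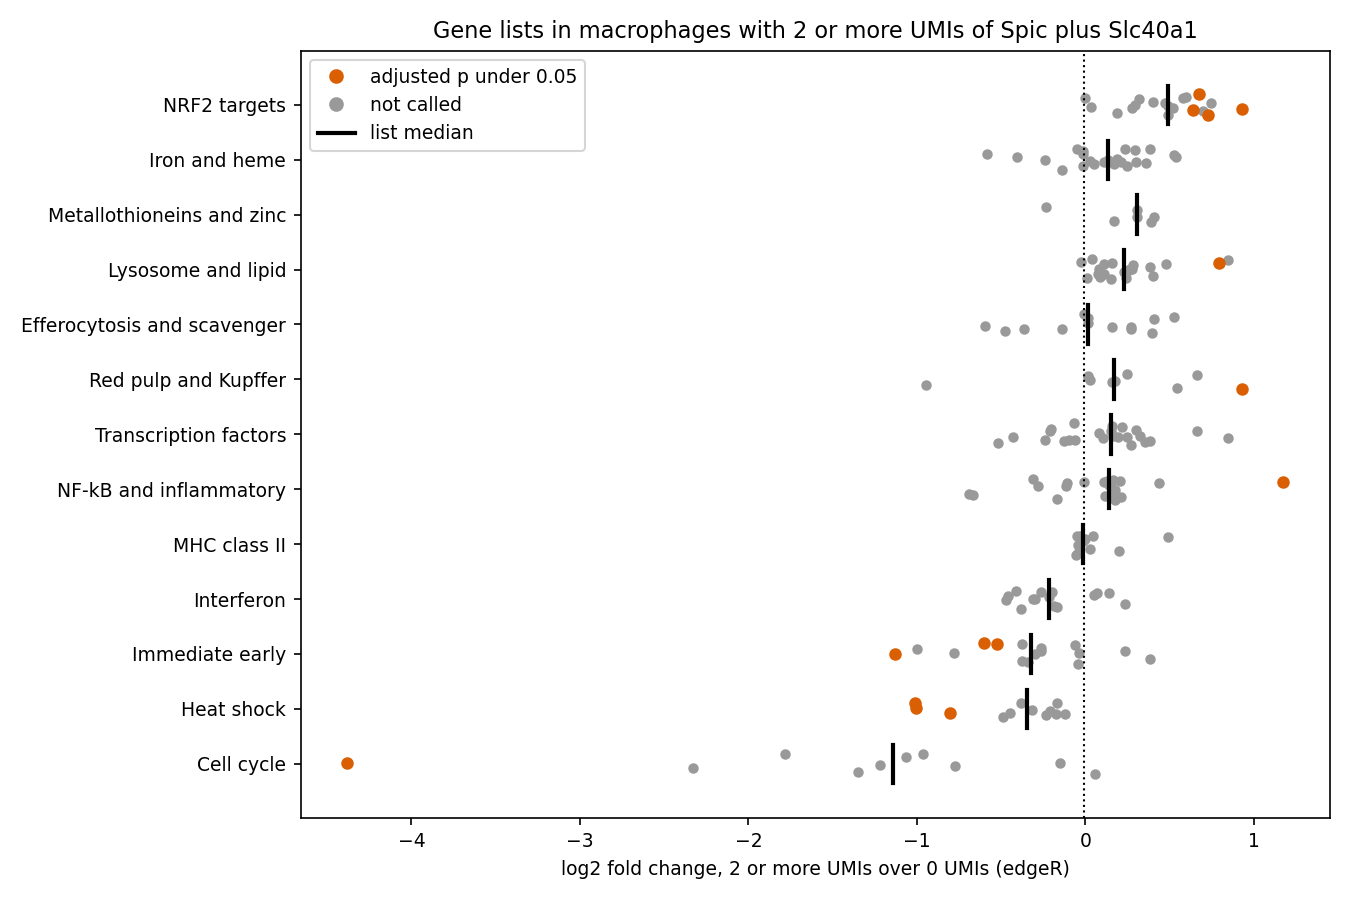
Each point is a tested gene's edgeR log2 fold change, Spic/Slc40a1 over 0-UMI macrophages, by gene list; orange points passed the test, bars are list medians and the dotted line is the median of all genes tested (-0.01). The NRF2 list has its median at 0.49, the immediate early list at -0.32 and the heat shock list at -0.35.

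Several gene groups showed no called member with all cells counted. Of 11 genes of MHC class II, which presents antigen, 0 were called by edgeR, 0 had an unadjusted p under 0.05, and the median was -0.01. Of 15 interferon response genes 0 were called, with 4 lower and 0 higher at an unadjusted p under 0.05 by edgeR and 0 called by DESeq2, and a median of -0.22. Of 24 macrophage transcription factors 0 were called by edgeR, with 6 higher and 2 lower at an unadjusted p under 0.05 and 1 higher called by DESeq2. Of 6 metallothionein and zinc genes 0 were called by edgeR, with 3 higher at an unadjusted p under 0.05 and 1 higher by DESeq2. Mt1, which binds zinc and copper, stood at 11029 and 5828 CPM in members, against 9562 and 4242 CPM (log2 fold change 0.30, edgeR adjusted p = 0.0845), and Mt2 at 1418 and 608 CPM against 1094 and 442 CPM (0.39, edgeR adjusted p = 0.104).

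A few cells carried large amounts of transcripts of other cell types. The 10 islet hormone genes listed, all detected, summed to 19183 and 2365 CPM in members at 12 weeks and 1 week, against 1990 and 27637 CPM in 0-UMI macrophages. One member at 12 weeks held 44620 of those UMIs, and 1 0-UMI macrophage at 1 week held 67623. The 8 B cell markers summed to 51.9 and 599 CPM in members against 81.5 and 218 CPM, with 803 UMIs in 1 member at 1 week. Median hormone shares per cell were 0.0988% and 0.0794% in members, against 0.0882% and 0.0954%. Leaving out 4 members and 24 0-UMI macrophages at 12 weeks, and 4 and 46 at 1 week, each rich in such transcripts, gave 44 genes higher and 49 lower. All 23 higher genes and 26 of the 30 lower ones were among them. In that setting Hmox1 passed (log2 fold change 0.38, edgeR adjusted p = 0.028), as did Srxn1, Abcc1, Ctsd, Mt2 and the monocyte marker Plac8 among listed genes on the higher side and Isg15, Il1a and Hspe1 on the lower side. At equal depth in that setting Mt1 and Mt2 were higher, and Isg15 and Cxcl10 lower, among the metallothionein and interferon genes.

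The members were not uniform. Lipa stood higher in those with Slc40a1, at 493 CPM in Slc40a1-only cells and 566 CPM in cells with both genes at 12 weeks, against 357 CPM in Spic-only cells. At 1 week the values were 503 CPM in Slc40a1-only cells, 427 CPM in cells with both and 292 CPM in Spic-only cells. Hmox1 had the same order between Slc40a1-only and Spic-only cells, at 4208 against 3861 CPM at 12 weeks and 3917 against 2016 CPM at 1 week. Cxcl3 had the opposite order, at 49.3 CPM in Slc40a1-only cells against 105 CPM in Spic-only cells at 12 weeks and 140.3 against 221 CPM at 1 week. In each kind Lipa and Hmox1 stood above the 0-UMI macrophages of the library. The 12-week member with 44620 hormone UMIs was an Slc40a1-only cell. Those UMIs are part of the 426144 UMIs of that kind at 12 weeks, which lowers its CPM values for other genes. With 18 Slc40a1-only cells at 1 week, the kinds were not tested against each other.

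Between the time labels, values are set side by side without a test. Over all macrophages, Spic stood at 91.9 CPM (Poisson 95% interval 86.4 to 97.6) at 12 weeks and 42.9 CPM (39.2 to 46.8) at 1 week, and Slc40a1 at 35.1 CPM (31.8 to 38.7) and 13.9 CPM (11.9 to 16.3). Within members, the log2 ratio of 12 weeks over 1 week was 0.77 for Hmox1 (0.72 to 0.82), 1.25 for Vcam1 (0.88 to 1.63) and 0.53 for Gclm (0.36 to 0.70). The same ratio in 0-UMI macrophages was 1.13 for Hmox1, 1.07 for Vcam1 and 1.02 for Gclm. Prdx1 and Lipa had ratios of 0.35 and 0.33 in members and 0.39 and 0.33 in 0-UMI macrophages. Cxcl3 ran the other way in both, at -0.90 in members (-1.15 to -0.66) and -0.64 in 0-UMI macrophages. The levels of these genes therefore lay apart between the libraries in both classes of macrophage, in the same direction in each.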

How the data were processed

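Raw UMI counts per gene and barcode were deposited by the authors for 2 droplet libraries (Chromium 3' v3), made with Cell Ranger 3.1.0 per the file headers and mapped to mm10 per the submitters' processing notes. The calling of cells among barcodes is not described in them. Barcodes were kept with at least 500 genes, 1000 UMIs and at most 10% mitochondrial UMIs, and classes followed the UMI thresholds given above. Members and gene lists were chosen with earlier results of these data known. No doublet caller was run; mixed droplets were treated by alternatives.

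Raw counts were summed per library and class (2 or more, 1 and 0 UMIs), giving 6 profiles, and tested in edgeR 4.0.16 (R 4.3.3) after TMM scaling and filterByExpr by the quasi-likelihood test, with library as block (2 residual degrees of freedom) and Benjamini-Hochberg adjustment at 0.05. Classes in a library come from the same pool, so the block pairs them by construction. No other replicates enter the p-values, which rest on how far the class differences varied between these 2 libraries. The 1-UMI class shares in the estimate of that spread, and edgeR also shares it over genes. Equal depth matched each member to the 0-UMI macrophage nearest in total UMIs, and thinning drew 4000 UMIs per cell. Data were simulated with 1 spread for all genes, changes only in genes with at least 10 CPM, and an intermediate change in the 1-UMI class. Changes in genes with fewer counts, or a spread that differs by gene, were not simulated. On those simulated data the same fit called 12 of 100 genes changed by 0.5 on the log2 scale and 70 of 100 changed by 1. It called 3 of 8288 unchanged genes. A gene not called may therefore still differ by such amounts. Alternatives were other cell, C1q and member thresholds, either gene alone, thinning, mixed droplets, DESeq2 1.42.0 and its size factors, no filter, fewer classes and no block. Intervals were computed with scipy 1.17.1 in Python 3.11.15.

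Named were all tested iron and heme genes (the less certain by range), up to 12 highest and 8 lowest genes past the threshold in both fits with at least 10 CPM, and up to 3 called genes each way of any other list. Positions are from GENCODE vM21 on GRCm38, with all 52 genes matched by identifier. Total UMIs per library give the depth, and single-library levels carry exact Poisson or binomial intervals for counting error.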

Additional observations from a re-analysis of the deposited data

Results flagged for a closer look

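In the results below the log2 ratio of members over 0-UMI macrophages pointed one way at 12 weeks and the other at 1 week, and the difference between libraries was not tested. Among iron, glutathione and regulatory genes, Pcbp2, an iron chaperone, had ratios of -0.17 at 12 weeks and 0.19 at 1 week. Gclc, of glutathione synthesis, had -0.39 and 0.51. Bhlhe40, a transcriptional repressor of macrophages, had -0.74 and 0.28. These 3 kept both signs without the cells rich in hormone or other markers (Bhlhe40 -0.69 and 0.21).

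For B cell markers, Cd79b had -2.17 at 12 weeks and 0.76 at 1 week, and Ighm had -0.54 and 1.48. For hormone and secretory granule genes of endocrine cells, the ratios were 2.83 and -3.40 for Ins1, 3.41 and -3.45 for Ins2, 3.80 and -3.68 for Iapp, 0.98 and -7.62 for Gcg, 3.34 and -3.69 for Chga, 3.81 and -4.57 for Chgb, and 2.18 and -3.91 for Pcsk1n. Without the cells rich in such transcripts they were 0.17 and 0.28 for Ins1, 0.18 and 0.18 for Ins2, 0.31 and 0.04 for Iapp and 0.58 and 0.21 for Chga, the same sign in both libraries. In that setting the signs remained opposite for Gcg (1.02 and -0.95), Chgb (0.96 and -0.52), Cd79b (-1.45 and 0.69) and Ighm (-0.26 and 0.17), and Pcsk1n had -0.45 and 0.03.

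Outside the macrophages, 5 of 132 other kept barcodes at 12 weeks had 2 or more UMIs of Spic and Slc40a1, against 0 of 97 at 1 week, and these barcodes enter no comparison.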

How the results depend on the processing

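With 23 genes higher and 30 lower as reported, there were 45 and 58 with macrophages defined by 10 C1q UMIs, 35 and 53 with members by Spic alone, 0 and 1 by Slc40a1 alone (edgeR, 207 higher and 329 lower at an unadjusted p under 0.05), 11 and 13 matched on depth, 51 and 109 with no filter on low counts, 6 and 10 with only the 2 compared classes fitted, and 44 and 49 without cells rich in hormones or other markers, a setting chosen after seeing the data. The fit by Slc40a1 alone held 2 classes and had 1 residual degree of freedom. Its counts are therefore not on a par with those by Spic alone. Of the 24 named genes called as reported, all 24 lost the call by Slc40a1 alone and 0 reversed direction. Their log2 fold changes there were 0.76 for Lipa, 0.70 for Slc7a11, 0.57 for Prdx1 and 0.51 for Cxcl3, among others. Genes higher numbered 41 with cells thinned and classes redrawn and 35 without mixed droplets, and genes lower numbered 12 by DESeq2. Without the library as a replicate block, which drops the pairing of classes, edgeR called 0 and 0 (89 higher and 130 lower at an unadjusted p under 0.05), at equal depth also 0 and 0 (114 and 133), and the Slc40a1 difference between Spic classes was 1.55 and no longer passed. At equal depth, with 11 higher and 13 lower as reported, DESeq2 gave 17 and 5, no filter 80 and 102, only 2 classes 5 and 7, and the setting without rich cells 50 and 41.

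Iron and heme genes higher numbered 2 with 10 C1q UMIs, 1 thinned, 2 thinned with classes redrawn, and 1 each without mixed droplets, by DESeq2, with no filter and without rich cells, against 0 as reported. Spic between Slc40a1 classes passed when matched on depth (1.13), with the stricter cell filter (1.06), 10 C1q UMIs (0.95), without mixed droplets (1.05), by DESeq2 (1.01) and without rich cells (0.99). Member shares were 12.6% and 4.77% thinned, 12.9% and 6.44% with 3 UMIs required, and 9.07% at 1 week without mixed droplets. Ppy reversed to 0.93 thinned with classes redrawn, 1.59 without mixed droplets and 1.36 without rich cells. Over the 32 named genes, 356 alternative values kept direction and call, 91 lost the call, 9 gained it and 3 reversed. Where calls moved, the cause was not tested.

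Leaving out 1 library left no residual degrees of freedom, so counts of genes could not be fitted and single ratios carry no test. Slc40a1 between Spic classes then ranged from 1.06 to 1.76, and Spic between Slc40a1 classes from 1.01 to 1.08. Depth limits what a count of 0 means: 1 UMI or none cannot show that a macrophage lacks either gene.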

Other observations

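Of 10 listed islet hormone genes, all tested, Ppy and Pyy were called lower in the members with all cells counted, none was called higher, and 4 had a positive log2 fold change. Ppy, pancreatic polypeptide, had 9 and 41 UMIs in Spic/Slc40a1 macrophages at 12 weeks and 1 week, against 56 and 688 UMIs in 0-UMI macrophages, of which 657 were in 1 cell. Pyy, peptide YY, had 13 and 6 UMIs against 57 and 411 UMIs, of which 300 were in 1 cell. Both passed the edgeR test with all cells (adjusted p = 0.00436 and 0.0141). Without the cells rich in hormones Ppy had the opposite sign and Pyy was not tested.

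Among genes lower in members and named after their values were seen, Tmem119, a surface protein best known from microglia, stood at 27.1 and 37.4 CPM in members, against 41.2 and 86.8 CPM in 0-UMI macrophages (log2 fold change -0.95, edgeR adjusted p = 0.0105). Hpgd, which inactivates prostaglandins, stood at 19.6 and 31.8 CPM against 39.2 and 53.9 CPM (-0.90, edgeR adjusted p = 0.0205). Ccl12, a monocyte chemokine of mice, stood at 14.1 and 24.6 CPM against 24.8 and 98.5 CPM (-1.53, edgeR adjusted p = 0.00175). At equal depth the log2 fold changes were -0.58 for Tmem119, -0.58 for Hpgd and -0.08 for Ccl12, and none of the 3 passed.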
